A study of Mus musculus with 6 samples.

Results

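The 45 genes described here encode the 19 Wnt ligands, the 10 Frizzled receptors, the coreceptors Lrp5 and Lrp6, the receptors Ror1, Ror2 and Ryk, the secreted antagonists Sfrp1, Sfrp2, Sfrp4, Sfrp5, Frzb and Dkk1 to Dkk4, and Porcn and Wls, which the cell needs to release Wnt proteins. They were chosen by gene symbol, and all 45 were found among the 18193 genes read by the arrays. Uterine RNA of 3 control and 3 mutant samples from female mice at 4 weeks of age was hybridized to Affymetrix arrays. The mutant mice carry Pgr cre/+ Ctnnb1f(ex3)/+, where Pgr drives Cre in progesterone receptor-expressing cells and the recombined Ctnnb1 allele, lacking exon 3, yields β-catenin that is no longer degraded. Pgr is also expressed outside the uterus, in the ovary, pituitary and mammary gland. The control mice are called wild type by the sample labels, while the methods name mice with Pgr cre/+ and with Ctnnb1 f(ex3)/+ as controls. The methods describe a pool of RNA from 3 uteri for each genotype. It is thus unsettled if each array holds its own animals, and p-values here measure only the spread among arrays, which may be technical. Some sets of genes differed widely among arrays of 1 group. In control replicates 1, 2 and 3, summed intensities were 1768, 390 and 1953 for cell cycle genes. For adipocyte genes they were 1893, 2324 and 589. What these differences say about the animals on each array was not tested. Each gene was read by its brightest probe set, values are log2 intensities, in order of replicate, and errors of fold changes are standard errors (SE). The groups were compared with limma over all genes, and a gene was called higher or lower in the mutant at an adjusted p under 0.05. A gene under an intensity of 16 (4 on the log2 scale) on all 6 arrays is named as dim. Readings that low may be mostly background, so a call there need not mean expression, and changes may be understated.

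Wnt proteins are secreted lipid-modified ligands. In the β-catenin branch they join a Frizzled receptor to Lrp5 or Lrp6, which stops the degradation of β-catenin, and β-catenin then acts with TCF/LEF factors in the nucleus. In other branches they act through Frizzled, Ror and Ryk receptors on cell polarity and movement, without β-catenin. Sfrp proteins bind Wnt ligands outside the cell, and most Dkk proteins act on Lrp5 and Lrp6. In the uterus, Wnt ligands of the epithelium and the stroma pattern the Müllerian duct, direct the formation of glands and take part in decidualization.

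Because stabilized β-catenin acts through TCF/LEF factors, the promoters of the members were searched on both strands for CTTTG, the core of common TCF/LEF binding sites, and for the 4 longer words in which each of the next 2 bases is A or T, such as CTTTGAA. The window was the 250 bases before the start of each gene, from the RefSeq table of GRCm38.p6, which held 30 of the 45 members. A word was found in none of the 9 promoters of members higher in the mutant, in none of the 5 of members lower in the mutant and in 4 of the 16 of members that were not called. Of all 27025 genes in the table, 16.8% held a word and 52.2% the core, and of all 32851 windows 14.8% and 48.6%. The core stood in the promoters of 4 of 9 higher, 3 of 5 lower and 8 of 16 uncalled members. The promoters of the ligand with the largest rise, the antagonist with the largest rise and the ligand with the largest fall are shown with that of Dkk1, the only member whose window held more than 1 of the words. Capitals mark the core on either strand.
Wnt16 promoter, chr6:22287977-22288226, plus strand: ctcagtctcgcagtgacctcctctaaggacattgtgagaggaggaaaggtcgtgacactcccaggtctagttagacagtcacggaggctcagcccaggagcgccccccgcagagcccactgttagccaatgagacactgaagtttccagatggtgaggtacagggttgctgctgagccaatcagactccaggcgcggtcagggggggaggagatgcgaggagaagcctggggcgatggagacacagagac
Frzb promoter, chr2:80447397-80447646, minus strand: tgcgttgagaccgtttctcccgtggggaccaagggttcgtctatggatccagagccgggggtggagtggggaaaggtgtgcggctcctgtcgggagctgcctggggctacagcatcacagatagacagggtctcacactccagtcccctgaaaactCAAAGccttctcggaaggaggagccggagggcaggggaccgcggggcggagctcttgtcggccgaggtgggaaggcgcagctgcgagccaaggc
Wnt7a promoter, chr6:91411354-91411603, minus strand: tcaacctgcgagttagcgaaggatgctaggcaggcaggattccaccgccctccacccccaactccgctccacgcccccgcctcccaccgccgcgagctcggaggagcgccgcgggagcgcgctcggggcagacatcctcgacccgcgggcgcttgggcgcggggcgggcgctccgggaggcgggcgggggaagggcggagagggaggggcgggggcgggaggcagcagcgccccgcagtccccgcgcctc
Dkk1 promoter, chr19:30549497-30549746, minus strand: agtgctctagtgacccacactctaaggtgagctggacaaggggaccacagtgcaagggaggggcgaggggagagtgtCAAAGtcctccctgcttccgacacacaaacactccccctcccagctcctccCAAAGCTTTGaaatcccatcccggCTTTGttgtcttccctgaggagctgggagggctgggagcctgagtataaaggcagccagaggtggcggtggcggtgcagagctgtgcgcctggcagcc
The Wnt16 and Wnt7a windows held no core, and the Frzb window held 1, which began 94 bases before the start. The Dkk1 window held 4 cores, of which those beginning 117 and 98 bases before the start belonged to the words CTTTGAA and CTTTGTT. The Dkk1 transcript was dim on all arrays and was not called. These windows say nothing about sites farther away, and no binding data were analysed here.

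Of the 45 members, the mutant uterus had 11 higher and 6 lower, and 28 were not called. Over all 18193 genes, 5.61% were called higher, 6.36% lower and 12.0% in either direction, against 37.8% of the members. Of the 29 members above an intensity of 16 on 1 array or more, 9 were higher and 6 were lower, and among the 10792 genes that met this mark the shares called were 8.11% higher and 9.78% lower. The median log2 fold change of the members was -0.03 and that of all genes -0.01. The count of higher members fell to 7 without control replicate 1 and to 7 without mutant replicate 2. The groups did not overlap on 22 of the 45 members, which include the 17 called, and on 32.3% of all genes. Mutant replicate 1 was the mutant array nearest to the control mean for 11 of the 17. It also had the smallest mean log2 change, in the direction of the call, over all called genes. This was 0.73, against 0.99 and 0.91 in mutant replicates 2 and 3.

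**Figure D1:**
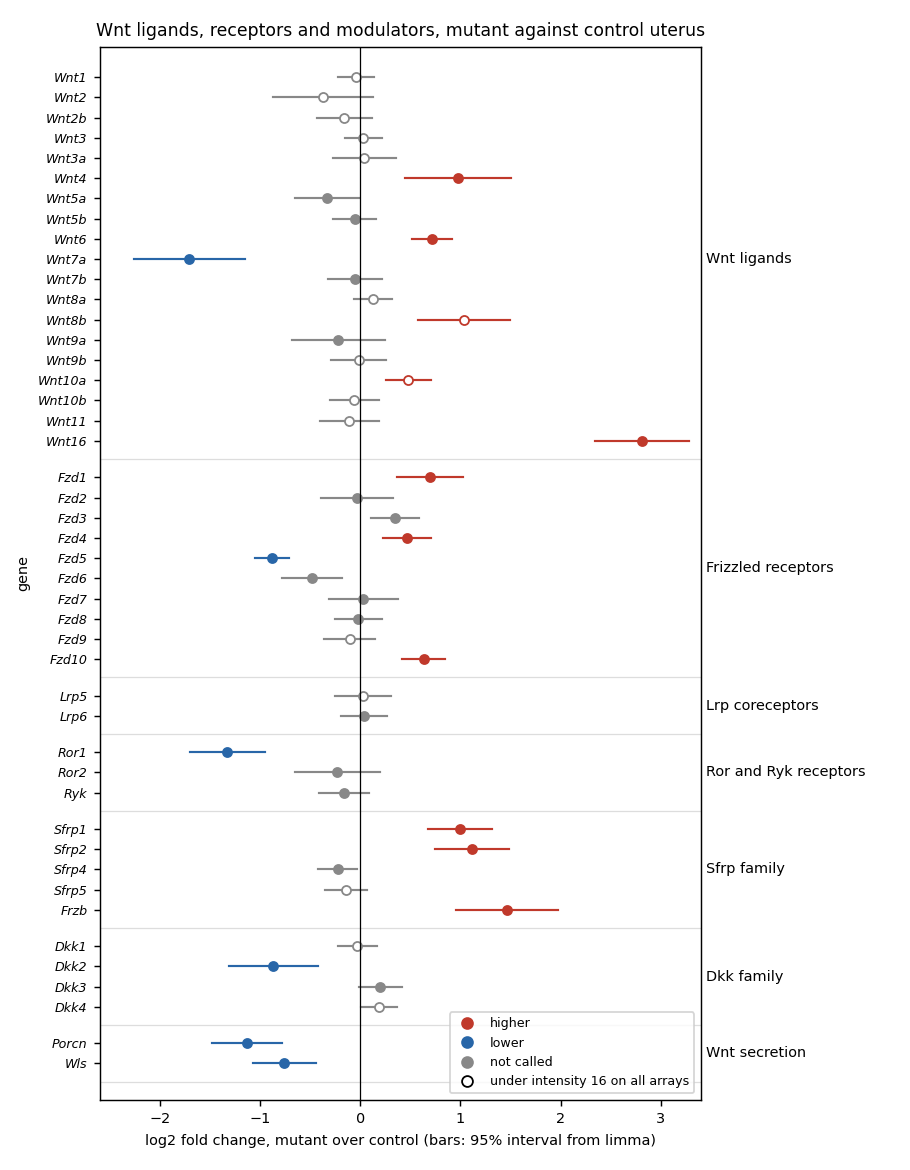
Each point is the log2 fold change of 1 member, mutant over control (x axis), with its 95% confidence interval from limma, grouped by role (y axis). Members called higher are red, those called lower blue and the rest grey, with open points for dim ones. Wnt16 stands farthest to the right at 2.81 and Wnt7a farthest to the left at -1.71.

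Of the 19 Wnt ligands, 5 were higher, 1 was lower and 13 were not called. Wnt16, a ligand known for its part in bone mass, read 6.19, 6.49 and 5.88 on the control arrays and 8.63, 9.12 and 9.25 on the mutant arrays. Its lowest mutant array lay far above its highest control array. The log2 fold change was 2.81 (SE 0.20, limma adjusted p = 0.000343), or 7.03-fold, the largest change of any member. Wnt4, a ligand needed for Müllerian duct formation and for decidualization, had log2 intensities of 5.70, 5.56 and 5.91 in the controls and of 6.68, 7.20 and 6.23 in the mutants. All mutant arrays lay above the controls, with mutant replicate 3 the nearest to them. The Wnt4 log2 fold change was 0.98 (SE 0.23, adjusted p = 0.0324). Only the omission of mutant replicate 3 left it called, and without any other array adjusted p was 0.0601 to 0.106 at log2 fold changes of 0.73 to 1.07. The other Wnt4 probe set rose by 1.13 (SE 0.24, adjusted p = 0.026 over all probe sets).

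Wnt6 and Wnt10a are neighbours in the genome, with no other protein-coding gene between them in RefSeq, and both were called higher. Wnt6, known from the formation of somites, had log2 intensities of 4.73, 4.77 and 4.57 in the controls and of 5.42, 5.45 and 5.35 in the mutants. Its spread was small in both groups, and the log2 fold change was 0.72 (SE 0.09, limma adjusted p = 0.003). Wnt10a, a ligand of tooth and hair development, had log2 intensities of 2.99, 2.88 and 2.90 in the controls and of 3.25, 3.41 and 3.55 in the mutants. It was dim on all arrays, its log2 fold change was 0.48 (SE 0.10, adjusted p = 0.02), and it stayed called only when mutant replicate 1 was the array omitted (otherwise 0.41 to 0.51, adjusted p of 0.0547 to 0.0681). The other neighbouring pairs of members, Wnt3a with Wnt9a, Wnt9b with Wnt3 and Wnt10b with Wnt1, were not called, with log2 fold changes between -0.22 and 0.04. Wnt8b, a ligand of the embryonic forebrain, was also dim on all arrays. Its log2 intensities were 2.08, 1.53 and 2.06 in the controls and 2.80, 3.27 and 2.70 in the mutants. The log2 fold change of 1.03 (SE 0.20, adjusted p = 0.0162) came from 1 of 3 probe sets, and the others had log2 fold changes of 0.12 and 0.28 and were not called.

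Wnt7a, a ligand of the uterine epithelium that is needed for Müllerian patterning and gland formation, was the lower ligand. Its log2 intensities were 6.87, 6.96 and 6.70 in the controls and 5.69, 4.64 and 5.08 in the mutants. The control arrays lay close together and the mutant arrays spread over a wider range below them. The log2 fold change was -1.71 (SE 0.24, limma adjusted p = 0.00531), or 3.26-fold lower. Of 12 measured epithelial markers, none was higher, Krt18 and Elf3 were lower and 10 were not called. Elf3 did not pass with control replicate 1 or any 1 mutant array omitted, where adjusted p reached 0.109. The summed intensity of the 12 was 5158 to 6140 in the controls and 3817 to 5376 in the mutants, so the groups overlapped, and all 12 were above an intensity of 16. Of 6 markers of uterine glands, Aldh1a1, Cxcl15 and Foxa2 were higher by 2.44, 1.87 and 1.54 (SE 0.15, 0.14 and 0.17), and none was lower. Sox17, Prss28 and Prss29 were not called, at -0.39, 0.28 and -0.07 (limma adjusted p = 0.0731, 0.327 and 0.687). Without mutant replicate 3, 1 gland marker was lower. The summed intensity of the 6 was 1265 to 1424 in the controls and 1969 to 2706 in the mutants. The part of these markers in the change of Wnt7a was not tested. In RNA of a whole organ, fewer cells of a type and less RNA per cell cannot be told apart.

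Wnt5a, the stromal ligand that signals through Ror receptors, had log2 intensities of 9.18, 9.42 and 8.88 in the controls and of 8.84, 8.90 and 8.73 in the mutants. The groups overlapped, and the log2 fold change of -0.33 was not called (SE 0.14, adjusted p = 0.173, 95% interval -0.66 to -0.01). Its other probe sets had log2 fold changes of -0.40 (adjusted p = 0.0985 over all probe sets), -0.52 (adjusted p = 0.0206, called lower) and 0.10 for the dim probe set. The choice of probe set thus decided the call of Wnt5a. Wnt9a, at -0.22 (adjusted p = 0.557), had 6.09 in mutant replicate 1, above all controls (5.76 to 5.86), and 5.36 and 5.28 in mutant replicates 2 and 3, below them. Without mutant replicate 1 it was called lower (log2 fold change -0.48, adjusted p = 0.0206). Wnt5b and Wnt7b were above an intensity of 16 with log2 fold changes of -0.06 and -0.05 (95% intervals -0.27 to 0.16 and -0.32 to 0.22). The remaining 9 ligands, Wnt1, Wnt2, Wnt2b, Wnt3, Wnt3a, Wnt8a, Wnt9b, Wnt10b and Wnt11, were dim on all arrays and not called. Of these Wnt2 was called lower without control replicate 3, with a log2 fold change of -0.65 (adjusted p = 0.0134).

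**Figure D2:**
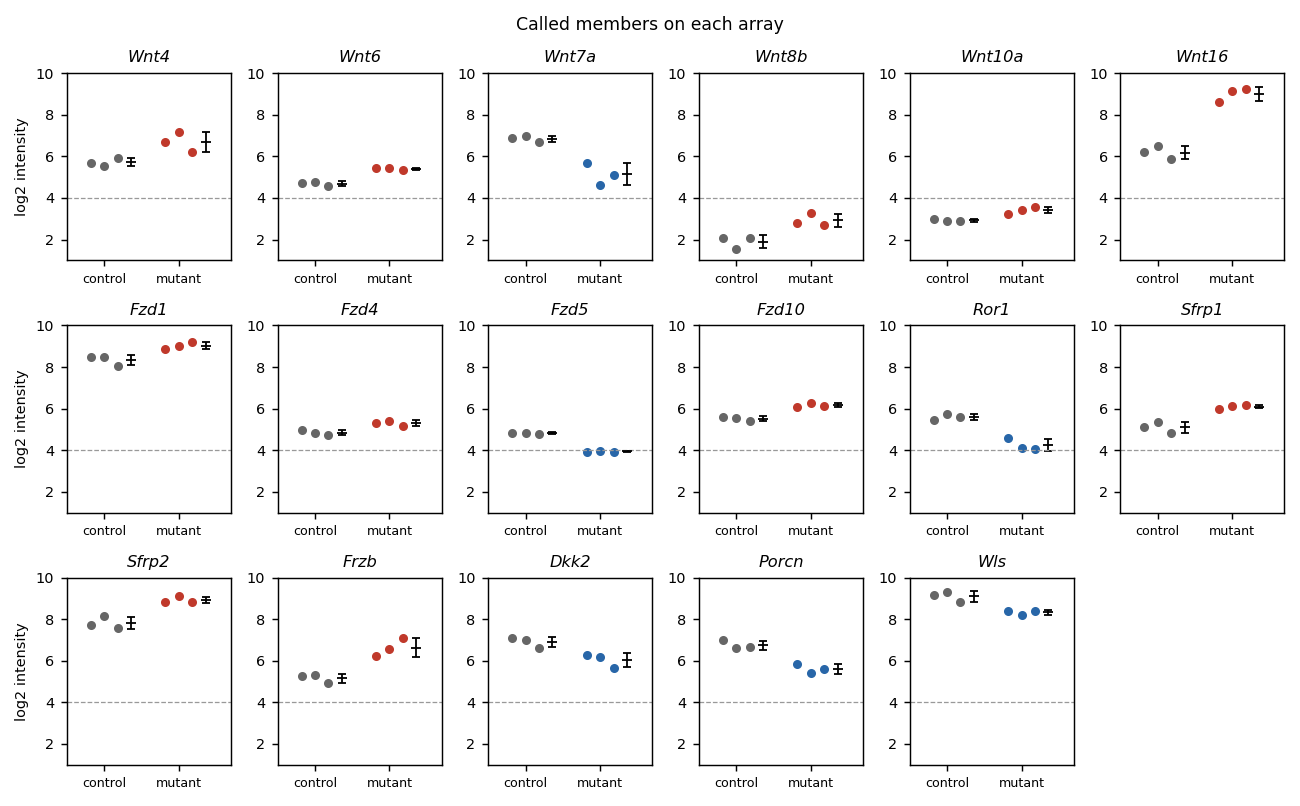
Each panel plots the log2 intensity (y axis) of 1 called member on the 3 control (grey) and 3 mutant arrays (red where higher, blue where lower, in order of replicate) and, in black, each group's mean with its SD. A dashed line lies at an intensity of 16. The groups do not overlap in any panel, and Wnt8b and Wnt10a lie below the line.

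Of the 10 Frizzled receptors, which bind Wnt ligands through a cysteine-rich domain, 3 were higher, 1 was lower and 6 were not called. Fzd10 had log2 intensities of 5.60, 5.57 and 5.39 in the controls and of 6.07, 6.26 and 6.12 in the mutants. Its log2 fold change was 0.63 (SE 0.09, limma adjusted p = 0.00683), and with the mean of its probe sets, of which the other was dim, the call was lost (0.30, adjusted p = 0.0901). Fzd1 had log2 intensities of 8.48, 8.47 and 8.06 in the controls and of 8.88, 9.0 and 9.22 in the mutants. The Fzd1 log2 fold change was 0.70 (SE 0.14, adjusted p = 0.0211). Fzd1 no longer passed when control replicate 1, mutant replicate 2 or mutant replicate 3 was omitted (0.60 to 0.77, adjusted p of 0.0522 to 0.0705). Fzd4, which is also the receptor of norrin in retinal vessels, had log2 intensities of 4.97, 4.84 and 4.72 in the controls and of 5.33, 5.43 and 5.16 in the mutants. Its log2 fold change was 0.46 (SE 0.10, adjusted p = 0.0282), which passed again only when mutant replicate 3 was the array omitted (otherwise 0.40 to 0.53, adjusted p of 0.057 to 0.0949). With the mean of its probe sets, of which the others were dim, Fzd4 did not pass (0.24, adjusted p = 0.198).

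Fzd5, a receptor known from the eye and the intestinal epithelium, was the lower Frizzled. Its log2 intensities were 4.84, 4.84 and 4.78 in the controls and 3.92, 3.97 and 3.93 in the mutants. The mutant arrays lay just under an intensity of 16, and replicates differed little within each group. This gave a log2 fold change of -0.88 (SE 0.07, limma adjusted p = 0.000619), or 1.84-fold lower, and Fzd5 was the only member called in each of the 18 alternative settings. Fzd6, a receptor known for hair patterning, had log2 intensities of 8.08, 8.11 and 7.87 in the controls and of 7.54, 7.32 and 7.76 in the mutants. The groups did not overlap, but the log2 fold change of -0.48 was not called (SE 0.13, adjusted p = 0.0528), and 6 of the 18 alternative settings called it lower. Fzd3 had a log2 fold change of 0.34 (SE 0.10, adjusted p = 0.075, 95% interval 0.10 to 0.58), also without overlap. It was called higher with array weights and without mutant replicate 1. Fzd2, Fzd7 and Fzd8 had log2 fold changes of -0.03, 0.03 and -0.02 (95% intervals -0.40 to 0.33, -0.32 to 0.37 and -0.25 to 0.21), and Fzd9 was dim on all arrays.

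Of the coreceptors of the β-catenin branch, neither Lrp5 nor Lrp6 was called. Lrp6 had a log2 fold change of 0.04 (95% interval -0.19 to 0.27), while its other probe set had one of 0.36 (SE 0.09, adjusted p = 0.0518 over all probe sets). Lrp5 was dim on all arrays, with a log2 fold change of 0.03. Of the receptors Ror1, Ror2 and Ryk, which act mainly outside the β-catenin branch, only Ror1 was called. The Ror1 log2 intensities were 5.43, 5.72 and 5.59 in the controls and 4.61, 4.10 and 4.05 in the mutants. Each mutant array lay far below each control array. This gave a log2 fold change of -1.33 (SE 0.16, limma adjusted p = 0.00291), or 2.51-fold lower, and both other Ror1 probe sets were dim and not called. Ror2 had log2 intensities of 6.39, 6.39 and 6.51 in the controls and of 5.79, 6.23 and 6.59 in the mutants, so the groups overlapped, with a log2 fold change of -0.23 (adjusted p = 0.501, 95% interval -0.66 to 0.20). Ryk had one of -0.16 (95% interval -0.42 to 0.09).

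Of the 5 Sfrp antagonists, 3 were higher, none was lower, and Sfrp4 and Sfrp5 were not called. Frzb, also named Sfrp3 and known from cartilage, had log2 intensities of 5.28, 5.30 and 4.92 in the controls and of 6.22, 6.57 and 7.11 in the mutants. Mutant replicate 3 was the highest and control replicate 3 the lowest. The Frzb log2 fold change was 1.46 (SE 0.22, limma adjusted p = 0.0069), or 2.75-fold. Sfrp2, a product of stromal cells in many organs, had log2 intensities of 7.71, 8.16 and 7.59 in the controls and of 8.85, 9.12 and 8.85 in the mutants. Its log2 fold change was 1.12 (SE 0.16, adjusted p = 0.00558), or 2.17-fold. Sfrp1 had log2 intensities of 5.10, 5.36 and 4.81 in the controls and of 6.0, 6.12 and 6.15 in the mutants, with a log2 fold change of 1.00 (SE 0.14, adjusted p = 0.00532). Of the 5 Sfrp1 probe sets, 3 were called higher over all probe sets and the others had log2 fold changes of 0.44 and 0.29. All 3 of these antagonists had their lowest value in control replicate 3, which was the lowest control array for 12 of the 17 called members. The calls of Frzb, Sfrp1 and Sfrp2 held on leaving out each array in turn. Sfrp4, a product of the endometrial stroma, had log2 intensities of 7.05, 6.91 and 7.13 in the controls and of 6.79, 6.82 and 6.79 in the mutants, and its log2 fold change of -0.23 was not called (adjusted p = 0.137, 95% interval -0.43 to -0.03). Sfrp5 was dim on all arrays.

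Markers of stromal and other cells were set beside the Sfrp genes. Of 10 markers of endometrial stroma, Hand2 was higher by 1.49 (SE 0.18), none was lower and 9 were not called, with summed intensities of 25692 to 27084 in the controls and of 24701 to 26392 in the mutants. Of 9 adipocyte markers, Cidec and Retn were higher, none was lower and 7 were not called. Retn did not pass with control replicate 1 or any 1 mutant array omitted, where adjusted p reached 0.146. Their summed intensity was 589 to 2324 in the controls, lowest in control replicate 3, and 3602 to 5739 in the mutants. Of 10 macrophage markers, 5 were higher and none was lower, with sums of 1462 to 1513 and of 1760 to 1904, and without control replicate 1 none of the 10 was called. Of 10 smooth muscle markers none was called, with sums of 11330 to 13161 and of 11321 to 12945. The part of these cells in the changes of Sfrp1, Sfrp2 and Frzb was not tested.

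Of the 4 Dkk proteins, Dkk2 was lower and the others were not called. Dkk2 had log2 intensities of 7.10, 7.0 and 6.63 in the controls and of 6.29, 6.18 and 5.64 in the mutants. The arrays of both groups spread widely without overlap. The log2 fold change was -0.87 (SE 0.19, limma adjusted p = 0.0264), and Dkk2 no longer passed when control replicate 1, control replicate 2 or mutant replicate 2 was omitted (-0.94 to -0.78, adjusted p of 0.0667 to 0.101). Dkk3, the member of the family that differs most from the rest, had log2 intensities of 6.99, 7.26 and 7.07 in the controls and of 7.27, 7.31 and 7.34 in the mutants, with a log2 fold change of 0.20 (adjusted p = 0.222, 95% interval -0.02 to 0.41). Dkk1 and Dkk4, both known as targets of the β-catenin branch, were dim on all arrays. Their log2 fold changes were -0.03 and 0.19 (95% intervals -0.23 to 0.16 and 0.01 to 0.36, adjusted p = 0.863 and 0.168).

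Both genes of Wnt release were lower in the mutant uterus. Porcn, the enzyme that attaches the lipid to Wnt proteins, had log2 intensities of 6.99, 6.61 and 6.65 in the controls and of 5.86, 5.39 and 5.60 in the mutants. Its log2 fold change was -1.13 (SE 0.15, limma adjusted p = 0.00418), or 2.19-fold lower, from the only probe set that carries its symbol, and the call held on leaving out each array in turn. Wls, which carries lipid-modified Wnt proteins to the cell surface, had log2 intensities of 9.16, 9.31 and 8.82 in the controls and of 8.39, 8.20 and 8.41 in the mutants. The log2 fold change was -0.76 (SE 0.14, adjusted p = 0.0128). Of the 4 Wls probe sets, 3 were called lower over all probe sets, at -0.76, -0.96 and -0.67, and the dim one had a log2 fold change of -0.19. Wls no longer passed when control replicate 1 was omitted (-0.73, adjusted p = 0.0592), nor when mutant replicate 2 was (-0.69, adjusted p = 0.0526).

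The 45 members were read by 91 probe sets in all. Of the 17 called members, 5 had 1 probe set and 12 had several. The 12 had 21 probe sets besides the brightest, of which 6 had a mean above an intensity of 16. All 6 of these, in Wnt4, Wnt6, Sfrp1 and Wls, moved in the direction of the brightest, and 4 were themselves called over all probe sets. Of the 15 with a lower mean, 12 moved in the same direction and 1 was called. The calls of Wnt7a, Wnt8b, Fzd1, Fzd4, Fzd5, Fzd10, Ror1 and Frzb thus rest on 1 probe set each, beside dimmer ones.

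**Figure D3:**
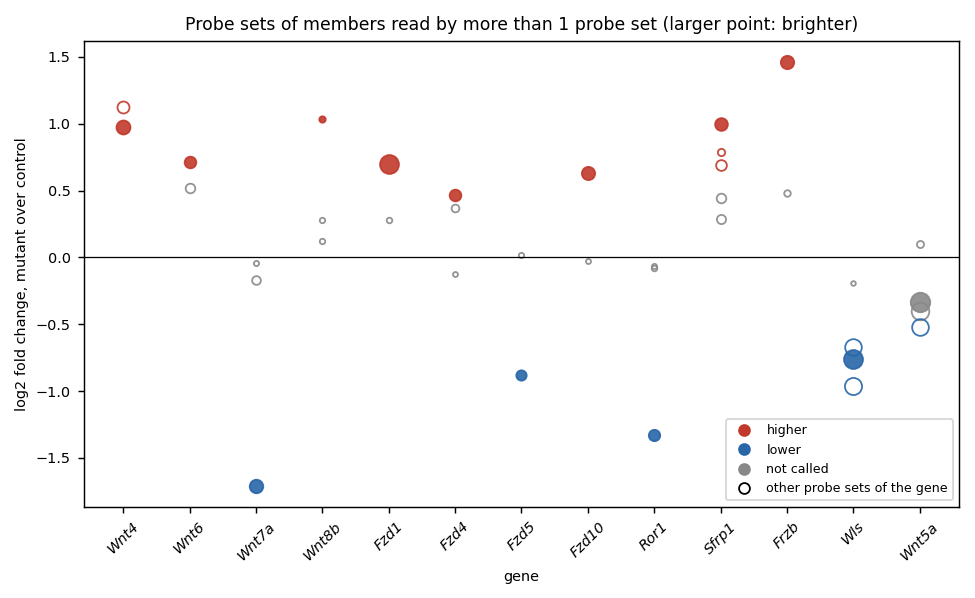
Points are the probe sets of the 12 called members read by more than 1 probe set, and of Wnt5a, at their log2 fold change of mutant over control (y axis). Filled points are the brightest of each gene, larger points are brighter, and red, blue and grey mark higher, lower and not called over all probe sets. The 4 Wls and 5 Sfrp1 probe sets lie on 1 side of 0 for each gene, and small points lie near 0 under the brightest probe set of Fzd10 and above that of Ror1.

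The members were set beside other genes of the pathway. Of 28 measured modulators outside the cell or at its surface, 12 were higher, 2 were lower and 14 were not called, with a median log2 fold change of 0.33, and without control replicate 1 the higher ones numbered 7. The lower ones numbered 1 without mutant replicate 2, and 3 without control replicate 3 or mutant replicate 1. The largest fitted changes were those of Notum, which removes the lipid that Porcn attaches, of the Wnt-binding inhibitor Wif1, of Tspan12, a partner of Fzd4 in norrin signaling, and of Apcdd1, an inhibitor at the membrane. Notum rose from 3.68, 3.44 and 3.11 on the control arrays, all under an intensity of 16, to 8.97, 9.64 and 9.28 on the mutant arrays, so its fitted change of 5.88 may be understated. Wif1, under 16 on 1 control array, rose by 4.21 (SE 0.28). Tspan12, under 16 on 2 control arrays, rose by 2.14 (SE 0.14), and Apcdd1 rose by 1.98 (SE 0.16). Of 34 genes of the β-catenin pathway within the cell, 7 were higher, 2 were lower and 25 were not called, with a median of 0.07. These counts were 4 and 0 without control replicate 1 and likewise without mutant replicate 2, and 4 were higher without control replicate 3 or mutant replicate 3. The feedback inhibitors Nkd1, Axin2 and Nkd2 rose by 2.94, 2.61 and 2.28 (SE 0.19, 0.14 and 0.21), and the TCF/LEF factor Lef1 by 2.35 (SE 0.11). Of 18 genes of planar cell polarity, 4 were higher, 4 were lower and 10 were not called, with a median of -0.10. Without control replicate 1 the counts were 1 higher and 3 lower, without mutant replicate 2 they were 2 and 2, and without mutant replicate 3 they were 2 and 3. Celsr1, a polarity cadherin, had a log2 fold change of -1.15 (SE 0.13, limma adjusted p = 0.00257). Fat4, another large cadherin, had one of -0.88 (SE 0.15, adjusted p = 0.0122), and did not pass with mutant replicate 2 omitted (adjusted p = 0.0502). Dact1, which binds Dishevelled, rose by 1.01 (SE 0.11). Daam2, a formin downstream of Dishevelled, rose by 1.11 (SE 0.20), and did not pass with control replicate 1 omitted (adjusted p = 0.0538).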

How the data were processed

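The data are 6 Affymetrix arrays, grouped by their labels, for which the authors deposited an intensity per probe set, linear in scale. RMA is named in the submitters' processing notes, with its version, detection calls and filters not given in the sources used here. Deposited intensities, 1.99 to 10886.56, were put on the log2 scale (a floor of 1 changed none), where the planned test had assumed log2 values. GEO's platform annotation gave the gene names, for the 34945 of 45037 probe sets with 1 symbol (932 had several and 9160 none), and each gene was read by its probe set of highest mean. The 3 mutant and 3 control arrays were compared by lmFit and eBayes of limma 3.58.1 (R 4.3.3) without covariates, and p-values were adjusted by Benjamini-Hochberg over 18193 genes. The members, the lists and the alternatives were chosen with earlier results of these data known. Every member may be named, members past the threshold with each array's value, and of other lists up to 4 genes past the threshold with the largest change. The lists covered Wnt modulators, the intracellular β-catenin pathway, planar cell polarity and cell type markers. The steps were tested on simulated data, with log2 changes of 0.5, 1 and 2 given to 50, 100 and 50 genes. Of these, 38%, 85% and 92% were called in the right direction, and 11 of 161 calls were false. Uncalled members had log2 fold changes of -0.48 to 0.34, a size at which true changes may be missed. Any 2 arrays shared at most 2.11% of their probe set values. The alternatives were other scalings, other ways to represent a gene, filters on low intensities, array weights, a replicate block, the methods' t-test and leaving out arrays. All 12 epithelial, 10 stromal and 10 smooth muscle markers measured were above an intensity of 16. Of the other marker lists, 1 of 7 natural killer cell genes was higher (Gzma) and 1 lower (Ncr1), 1 of 8 endothelial genes was lower, 1 of 6 mast cell genes was higher, 3 of 8 oviduct and ciliated cell genes were higher and 1 lower, 1 of 14 cell cycle genes was higher and 1 of 7 skeletal muscle genes was lower. None of 5 T cell, 4 B and plasma cell, 5 mesothelial, 3 Schwann cell and 4 red blood cell genes was called. Ncr1, dim on all arrays, was not called with any 1 array omitted, and a cell cycle gene was called only without control replicate 3. No endothelial gene was called without control replicate 1 or 2, or without mutant replicate 2 or 3. Without mutant replicate 1, 3 endothelial genes were lower. Without control replicate 1, 1 oviduct and ciliated cell gene was higher. Of the 3 higher oviduct and ciliated cell genes, Tekt1 and Foxj1 were dim on all arrays, and Foxj1 was not called with any 1 array omitted. Ovgp1, an oviduct marker, was not called, with 8.01 in mutant replicate 3 and 2.49 to 4.60 on the other arrays. The summed intensity of the cell cycle genes was 390 in control replicate 2 and 1484 to 2109 on the other arrays. The number of arrays limits the precision.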

Additional observations from a re-analysis of the deposited data

How the results depend on the processing

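The results were recomputed in 18 alternative settings. The member counts of 11 higher and 6 lower stayed within 1.5 times of themselves under other scalings, with the mean of a gene's probe sets, with all probe sets adjusted together, with the lowest 40% of genes left out, with a floor of 16 (genes at the floor on all arrays left out), with an intensity trend, with array weights and under a rule of 1.5-fold with unadjusted p under 0.05. With the mean of probe sets, the calls of Fzd4 and Fzd10 were lost. No called member changed direction in any of them. Under the methods' t-test with Benjamini-Hochberg adjustment, 0 members were higher and 1, Fzd5, was lower, and over all genes 105 were higher and 39 lower. At an unadjusted p under 0.05 that test gave 13 higher and 8 lower members, and 9 and 6 with a fold change above 1.5 as well. The same rules gave 1924 higher and 2224 lower over all genes, and 649 and 665 with the fold change. This test takes the spread of each gene from its own 6 arrays. Under the 1.5-fold rule with limma's unadjusted p, 757 genes of all were lower, against 1157. On leaving out each array in turn, 7 to 10 members were higher and 4 to 7 lower, and over all genes 480 to 971 were higher and 372 to 1139 lower, the lowest counts without control replicate 1 and, for the members, equally without mutant replicate 2. Over all genes, those without mutant replicate 2 were 580 and 493, and the lower genes numbered 682 without control replicate 2 and 760 without mutant replicate 3. Of the 17 calls 11 held throughout, and those of Wnt4, Wnt10a, Fzd1, Fzd4, Dkk2 and Wls were lost at least once, with adjusted p of 0.0522 or more. Without both control replicate 2 and mutant replicate 1, 9 members were higher and 4 lower. With the replicate number as a block, 10 members were higher and 6 lower, Wnt4 being lost (adjusted p = 0.0554), and over all genes 966 were higher and 1085 lower. Same-numbered arrays had correlations of their deviations of 0.01, 0.21 and 0.16. Each mutant array correlated best with the control of its own number. Control replicate 1 correlated best with mutant replicate 3, at 0.11. The main fit did not take the numbers to pair the samples, and whether they do is not settled by these values. Of the 28 uncalled members, 4 (Wnt2, Wnt9a, Fzd3 and Fzd6) were called in some setting, and 14 changed sign in some setting. Signal over background limits the dim members, for which a change of either sign may be understated.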
